A study of Mus musculus with 3 samples.

Results

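RBFOX2 crosslinks were examined in 10 genes of insulin and IGF signalling in mouse hepatocytes: the receptor genes Insr and Igf1r, the ligand gene Igf1, the adaptor genes Irs1 and Irs2, the PI3-kinase subunit gene Pik3r1, the kinase genes Akt1 and Akt2, and the transcription factor genes Foxo1 and Foxo3. RBFOX2 was immunoprecipitated with an antibody to RBFOX2 (RBM9) from primary hepatocytes of C57BL6/J mice on control diet, which had been plated, kept overnight and irradiated with UV light at 150 mJ/cm2. The eiCLIP protocol, an enhanced form of iCLIP, reads out positions of contact, since reverse transcription ends at the crosslinked nucleotide and cDNA starts record it. There were 3 libraries in a single group, each labelled as 3 livers and 3 pellets (the methods of the study give another number of mice per culture), and their cDNA starts were pooled before clusters were called. The list analysed here therefore holds 1 value for each cluster, with no spread between libraries, no depth of a single library and no comparison between conditions. A cluster was assigned to a gene when it lay on the gene's strand and its midpoint fell inside the GENCODE M21 span of the gene (build GRCm38). By this rule 238 of 87021 clusters, with 5151 of 2850863 counts, belonged to the 10 genes.

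Insulin and IGF1 bind receptor tyrosine kinases at the cell surface, which phosphorylate the IRS adaptors. The adaptors recruit PI3-kinase, whose lipid product activates AKT, and AKT phosphorylates FOXO transcription factors and so keeps them out of the nucleus. In the liver this chain restrains glucose output and promotes glycogen and lipid synthesis. Insr is itself alternatively spliced: exon 11 is left out of receptor isoform A and kept in isoform B, the form that is prevalent in liver. RBFOX proteins recognise (U)GCAUG in RNA, and they are known to favour inclusion of an exon when bound downstream of it and skipping when bound upstream.

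The sequences that carry the main finding are those around exon 11 of Insr, a 36-nt exon at chr8:3181702-3181737 on the minus strand. The transcript Insr-203 uses this exon and Insr-201 skips it. The sequences were read from the GENCODE M21 transcript Insr-204, in which intron 11 is retained. In the first pair, which shows both splice sites of the exon, capitals mark exon bases.
Insr exon 11 start, chr8:3181728-3181757: gatgaattttgttttcacagAAAAACCTCT
Insr exon 11 end, chr8:3181682-3181711: AGGACAGTAGgtatgactcagctatgggac

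The next set shows the GCATG sites, the DNA letters of GCAUG, that lay inside or within 50 nt of an Insr cluster, with the motif in capitals. The first and second belonged to the same cluster of 217 counts downstream of exon 11, the third to a cluster of 45 counts farther into intron 11, and the last to a cluster of 67 counts in the 3′ UTR.
Insr intron 11, chr8:3181573-3181602: ttattttttttttGCATGtgataaacagag
Insr intron 11, chr8:3181492-3181521: aaatggaatcaggGCATGaatgtgggggaa
Insr intron 11, chr8:3177939-3177968: atttcattcttttGCATGatgtactttgat
Insr 3′ UTR, chr8:3150969-3150998: ctgaaattgttctGCATGtataatacaggc

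The highest crosslink count of all 10 genes lay just downstream of Insr exon 11. This cluster (chr8:3181483-3181621, 139 nt wide) began 80 nt past the 5′ splice site and held 217 counts, with an exact Poisson 95% interval of 189 to 248. All intervals given here cover counting error only. The cluster ranked 613th by count among all 87021 clusters, above 99.3% of them. Its count was 2.49 times that of the next Insr cluster, which held 87 counts over 20 nt in the 3′ UTR. These counts are totals over clusters of unlike width and were not set per nt. The GCATG sites within the 217-count cluster started 112 and 193 nt downstream of the exon. The first followed a run of T and formed TGCATG, while the second did not.

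Other clusters flanked the exon on both sides, and 0 clusters overlapped the exon itself. A cluster of 11 counts, 3 nt wide, lay 46 nt downstream of the exon, between its 5′ splice site and the high cluster. Upstream, in intron 10, a cluster of 28 counts (Poisson interval 18.6 to 40.5) ended 47 nt before the exon, at chr8:3181785-3181805. The intron within 300 nt downstream thus held 228 counts, or 12.5% of the 1827 counts of Insr, against 28 counts in the same distance upstream. Farther downstream, at 404, 553, 618, 937 and 1100 nt from the exon, lay clusters of 16, 61, 22, 11 and 14 counts. The 61-count cluster at 553 nt was the second highest in the intron. None of these had GCATG within 50 nt.

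**Figure D1:**
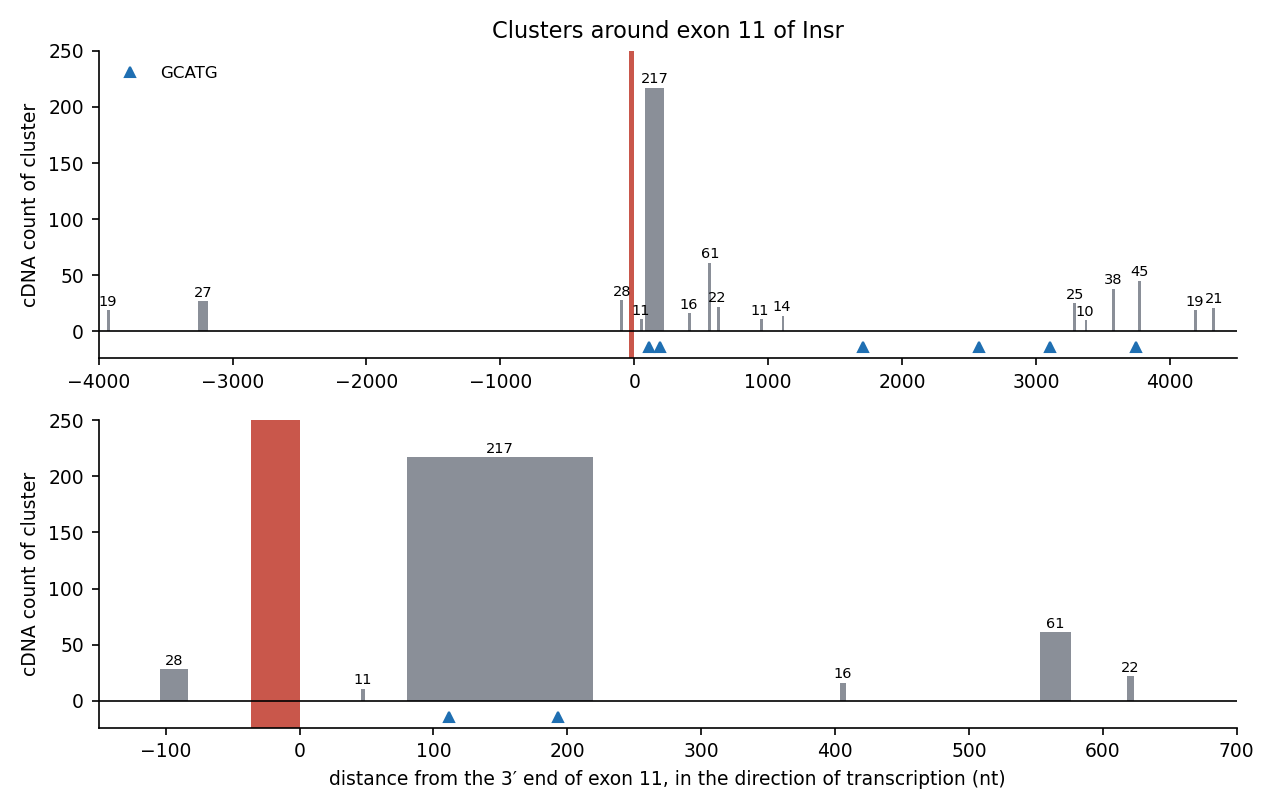
Clusters around exon 11 of Insr, by distance in nt from the 3′ end of the exon in the direction of transcription, for a wide window (top) and a narrow window (bottom). Grey bars span each cluster (the thinnest are widened to stay visible) and their height is the cDNA count of the pooled libraries; the red band is exon 11, and blue triangles are GCATG sites, searched where the retained-intron transcript gives sequence. The 217-count cluster stands 80 nt past the exon with 2 triangles beneath it.

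Intron 11 as a whole stood apart from the rest of Insr. It is 6813 nt long and held 14 clusters with 521 counts, that is 28.5% of the counts of the gene, at 2.05 clusters and 76.5 counts per kb. The other 21 introns held 33 clusters at 0.234 clusters and 4.45 counts per kb, so that intron 11 was 8.80 times as dense in clusters and 17.2 times as dense in counts. None of the others exceeded 0.692 clusters or 19.2 counts per kb, and 10 of them had no cluster. Intron 10, on the other side of the exon, held 2 clusters with 55 counts in 3213 nt.

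The part of intron 11 with known sequence allowed the motif to be placed. The retained-intron transcript (chr8:3177833-3181851, 4019 nt) held 12 clusters with 498 counts and 6 GCATG sites, all downstream of the exon. Of the 6 sites, 2 lay inside the 217-count cluster and 1 lay 9 nt from the 45-count cluster (chr8:3177915-3177941). The remaining sites were 169 to 702 nt from the nearest cluster. Within 50 nt of a cluster lay 50% of the sites and 32.3% of the bases of the transcript. Most clusters of the stretch, including that of 61 counts, had no GCATG within 50 nt.

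Few cassette exons had as high a count beside them. Across protein-coding genes, 673 cassette exons, that is exons which 1 annotated coding transcript uses and another skips, had a cluster in the 300 nt of intron downstream, with a median of 19 counts for the highest such cluster. Of these, 10 had a cluster of higher total count than Insr exon 11, with no account taken of cluster width. The 10 genes had 6 cassette exons, of which 2 had a cluster within 300 nt of intron, against 8.25% of 13163 cassette exons of all coding genes. With 6 exons this difference was not tested, since exons of a gene are not replicates.

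The other cassette exon with a flanking cluster was a 163-nt exon of Akt2 (chr7:27607243-27607405), used by 1 coding transcript and skipped by 7. Akt2 encodes the AKT isoform that carries much of the metabolic response to insulin. Its cluster held 15 counts and began 224 nt downstream of the exon. The cluster was nearer to another annotated Akt2 exon (chr7:27607748-27607915), which follows it at 50 nt. The 129-nt cassette exon of Akt1 (chr12:112657068-112657196) had no intronic cluster within 300 nt, but a 10-count cluster only 4 nt wide lay inside it and an 11-count cluster lay 546 nt downstream, in the coding sequence of a later exon. For both 129-nt cassette exons of Akt2, the nearest clusters were 2066 to 8543 nt away. The 95-nt cassette exon of Foxo3 had its nearest clusters at 3676 nt downstream, with 23 counts, and at 5835 nt upstream, with 16 counts.

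Over all 90 internal exons of the 10 genes, 14 had a cluster in the adjoining 300 nt of intron (15.6%, Wilson 95% interval 9.50 to 24.4%). The share over all coding genes was 5.46%, and it was 9.05% of 109346 exons when only genes with a cluster were counted. The 14 exons drew on 15 distinct clusters, and some clusters adjoined 2 exons. The Igf1 clusters of 23 and 11 counts were among them, though they lay in 5′ UTR exons of other transcripts. An 82-nt Igf1 exon was counted only through the 23-count cluster. Upstream and downstream flanks were occupied equally often, at 8 exons each. Apart from Insr exon 11, the highest flanking count was a Pik3r1 cluster of 57 counts, 219 nt upstream of a 132-nt exon, which was a single nucleotide wide (chr13:101703060-101703060).

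All 10 genes, which were chosen with earlier results of these data known, had at least 1 cluster, against 41.7% of 22028 protein-coding genes. The number of clusters ranged from 1 in Igf1r to 71 in Insr, and 9 of the genes exceeded the median of 3 clusters among coding genes with a cluster. Insr, Foxo1, Foxo3 and Pik3r1 together held 191 of the 238 clusters (80.3%). The counts of single clusters were not unusual, with a median of 17 and a range of 10 to 217. The median over all clusters was also 17. Clusters with at least 39 counts, the highest 10% of the list, made up 8.0% of the member clusters (19 of 238) and 10.3% of the clusters of coding genes. Of these 19, Insr held 11, Akt1 held 3, Foxo1 and Foxo3 held 2 each and Pik3r1 held 1. Without an input library or RNA level beside the list, the number of clusters in a gene and the amount of its RNA cannot be told apart.

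**Figure D2:**
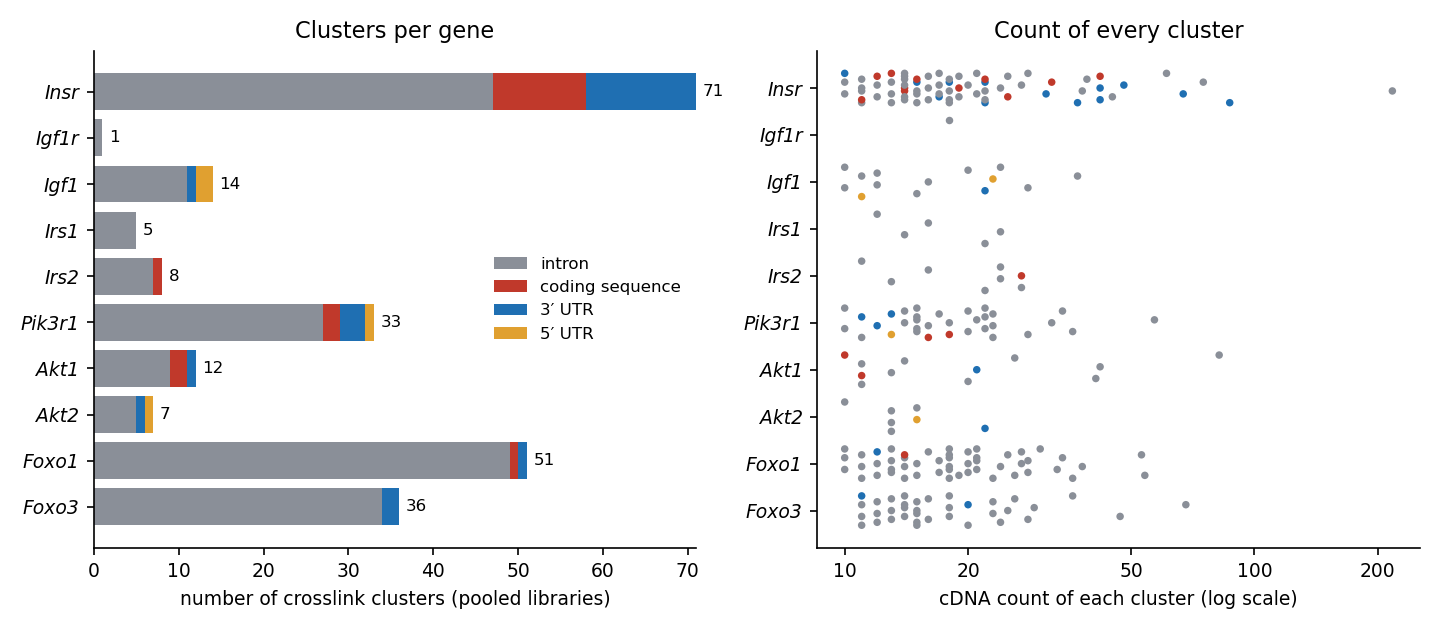
Left, number of crosslink clusters in each of the 10 genes, coloured by the annotation at the cluster midpoint, with the total beside each bar. Right, the cDNA count of every cluster on a log axis, 1 point per cluster with the same colours (vertical scatter only separates points). Insr has 71 clusters and the highest point, at 217 counts, while Igf1r has a single cluster of 18.

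The receptor genes lay at opposite ends of this range. Insr (ENSMUSG00000005534.10, chr8:3122061-3279617) had a summed count of 1827, rank 142 among the 9191 coding genes with a cluster, and 4.51 clusters per 10 kb of gene. Igf1r (ENSMUSG00000005533.10, chr7:67952827-68233668), which encodes the IGF1 receptor and is close kin of Insr, had 1 cluster of 18 counts in its 160.6-kb intron 2, at chr7:68129760-68129761. That cluster was 2 nt wide and lay 35231 nt from the nearest exon. Igf1r is the longer gene, at 281 kb, and its density was 0.0356 clusters per 10 kb, which exceeded that of 1.90% of coding genes with a cluster. RNA levels were not analysed here.

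Insr also differed from the other members in where its clusters lay. Introns held 47 of its 71 clusters (66.2%, Wilson interval 54.6 to 76.1%), against 148 of 167 (88.6%, 82.9 to 92.6%) in the other 9 genes. Its coding sequence held 11 clusters of 11 to 42 counts, of which the highest was at chr8:3189140-3189184. Its 3′ UTR, 4719 nt long, held 13 clusters with 458 counts, ranging from 10 to 87 each. Outside intron 11 and the 3′ UTR the highest Insr cluster had 75 counts, in intron 2 (chr8:3252947-3253128). A further 2 clusters with 36 counts lay beyond the end of Insr-201, in an intron that only a longer annotated transcript contains.

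The 3′ UTR of Insr was the most densely covered of the 10, at 2.75 clusters per kb. Akt1 followed with 1.14 clusters per kb, from 1 cluster of 21 counts in 880 nt. Pik3r1 had 3 clusters of 11 to 13 counts, Foxo3 had 2 clusters, and Igf1, Akt2 and Foxo1 had 1 each. Irs1, Irs2 and Igf1r had none in 3′ UTRs of 4528, 2332 and 7270 nt. The 22 clusters of all 3′ UTRs held 602 counts, and Insr accounted for most of both. The 2 highest 3′ UTR clusters of Insr held 87 counts (chr8:3154843-3154862) and 67 counts (chr8:3150973-3151028), and the second held the TGCATG printed above, while the first had no GCATG within 50 nt.

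**Figure D3:**
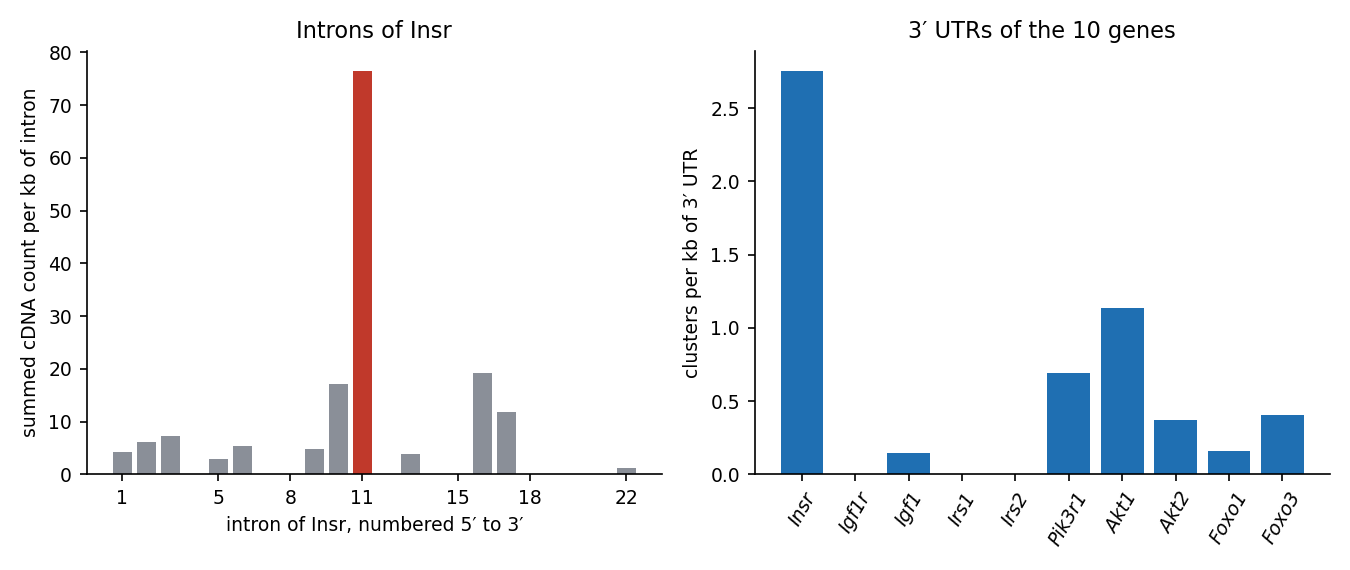
Left, summed cDNA count per kb for each of the 22 introns of Insr, numbered from the 5′ end, with intron 11 in red. Right, clusters per kb of 3′ UTR in each of the 10 genes; bars absent from either panel are values of 0. Intron 11 reaches 76.5 counts per kb, and the Insr 3′ UTR has 2.75 clusters per kb.

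The ligand gene Igf1 (ENSMUSG00000020053.18, chr10:87858265-87937042) encodes the growth factor that the liver releases into blood. It had 14 clusters with 251 counts, a sum above that of 82.8% of coding genes with a cluster. Both 5′ UTR clusters, of 23 and 11 counts, lay in its alternative leader exons, at chr10:87859575-87859583 and chr10:87861026-87861057. Its highest cluster held 37 counts (Poisson interval 26.1 to 51.0) at chr10:87919216-87919346, in the 14.8-kb intron that precedes the last exon. That intron held 3 clusters of 28, 37 and 24 counts, which were the 3 highest of the gene. Its length is measured from the extended form of a 52-nt exon, which some transcripts carry on into an end of their own. Where the 52-nt form is spliced to the last exon, the intron is 15325 nt long. The 3 clusters lay 1558 to 4895 nt from the nearest exon. The single 3′ UTR cluster, of 22 counts, held a TGCATG, shown here with the motif in capitals because it is the only Igf1 site found near a cluster.
Igf1 3′ UTR, chr10:87932712-87932741: ttgtttgtacatGCATGtatttttttttta

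The adaptor genes, whose products pass the receptor signal to PI3-kinase, had 5 and 8 clusters, both above the coding-gene median of 3. Irs1 (ENSMUSG00000055980.2, chr1:82233101-82291416) had 5 clusters of 12, 16, 14, 24 and 22 counts, all inside its only intron of 49.2 kb. The 4640-nt first exon of Irs1, which holds the coding sequence, and the 4504-nt second exon had 0 clusters. Irs2 (ENSMUSG00000038894.7, chr8:10984681-11008458) had 8 clusters with 164 counts in a gene of 23.8 kb. Of these, 7 were intronic with 11 to 27 counts, and 1 of 27 counts lay in the coding sequence at chr8:11005394-11005592. Per 10 kb of gene, Irs2 had 3.36 clusters and Irs1 had 0.857, below the coding-gene median of 1.22.

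Pik3r1 (ENSMUSG00000041417.15, chr13:101680563-101768217) encodes the regulatory subunits of PI3-kinase, of which the long p85α form and the shorter p55α and p50α forms arise from different first exons. It had 33 clusters with 651 counts, a sum above that of 94.2% of coding genes with a cluster. Upstream of the first exons of its shorter coding transcripts lay 28 clusters with 581 counts, and downstream of that point 5 clusters with 70 counts. The upstream part is much the longer, since intron 2 alone makes up 47.6 kb of the 87.7-kb gene. These numbers were not set per kb and show no concentration of clusters in that part. Intron 2 of the long form, 47.6 kb in length, held 17 clusters, and of 4 equal parts of this intron the first, at its 5′ end, held 11 of them and the last held none. Coding sequence shared by long and short forms held 2 clusters of 18 and 16 counts. Without the single-nucleotide cluster of 57 counts described above, the highest Pik3r1 cluster had 36 counts, at chr13:101754782-101754838 in intron 2.

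The AKT kinase genes differed in their counts. Akt1 (ENSMUSG00000001729.14, chr12:112653821-112674884) had 12 clusters with 302 counts in 21.1 kb, that is 5.70 clusters per 10 kb. Its highest cluster held 82 counts (65.2 to 102) at chr12:112663605-112663658, in an intron and 1270 nt from the nearest exon. A cluster of 41 counts lay close by, at chr12:112663216-112663265, and another of 42 counts at chr12:112669996-112670020. Akt2 (ENSMUSG00000004056.15, chr7:27591552-27640826) had 7 clusters with 101 counts in 49.3 kb, none above 22 counts. Of its clusters 5 were intronic, and 3 of these lay 50, 11 and 90 nt from an annotated exon. The highest Akt2 cluster, with 22 counts, was in the 3′ UTR at chr7:27638234-27638252, and a 15-count cluster was in the 5′ UTR.

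**Figure D4:**
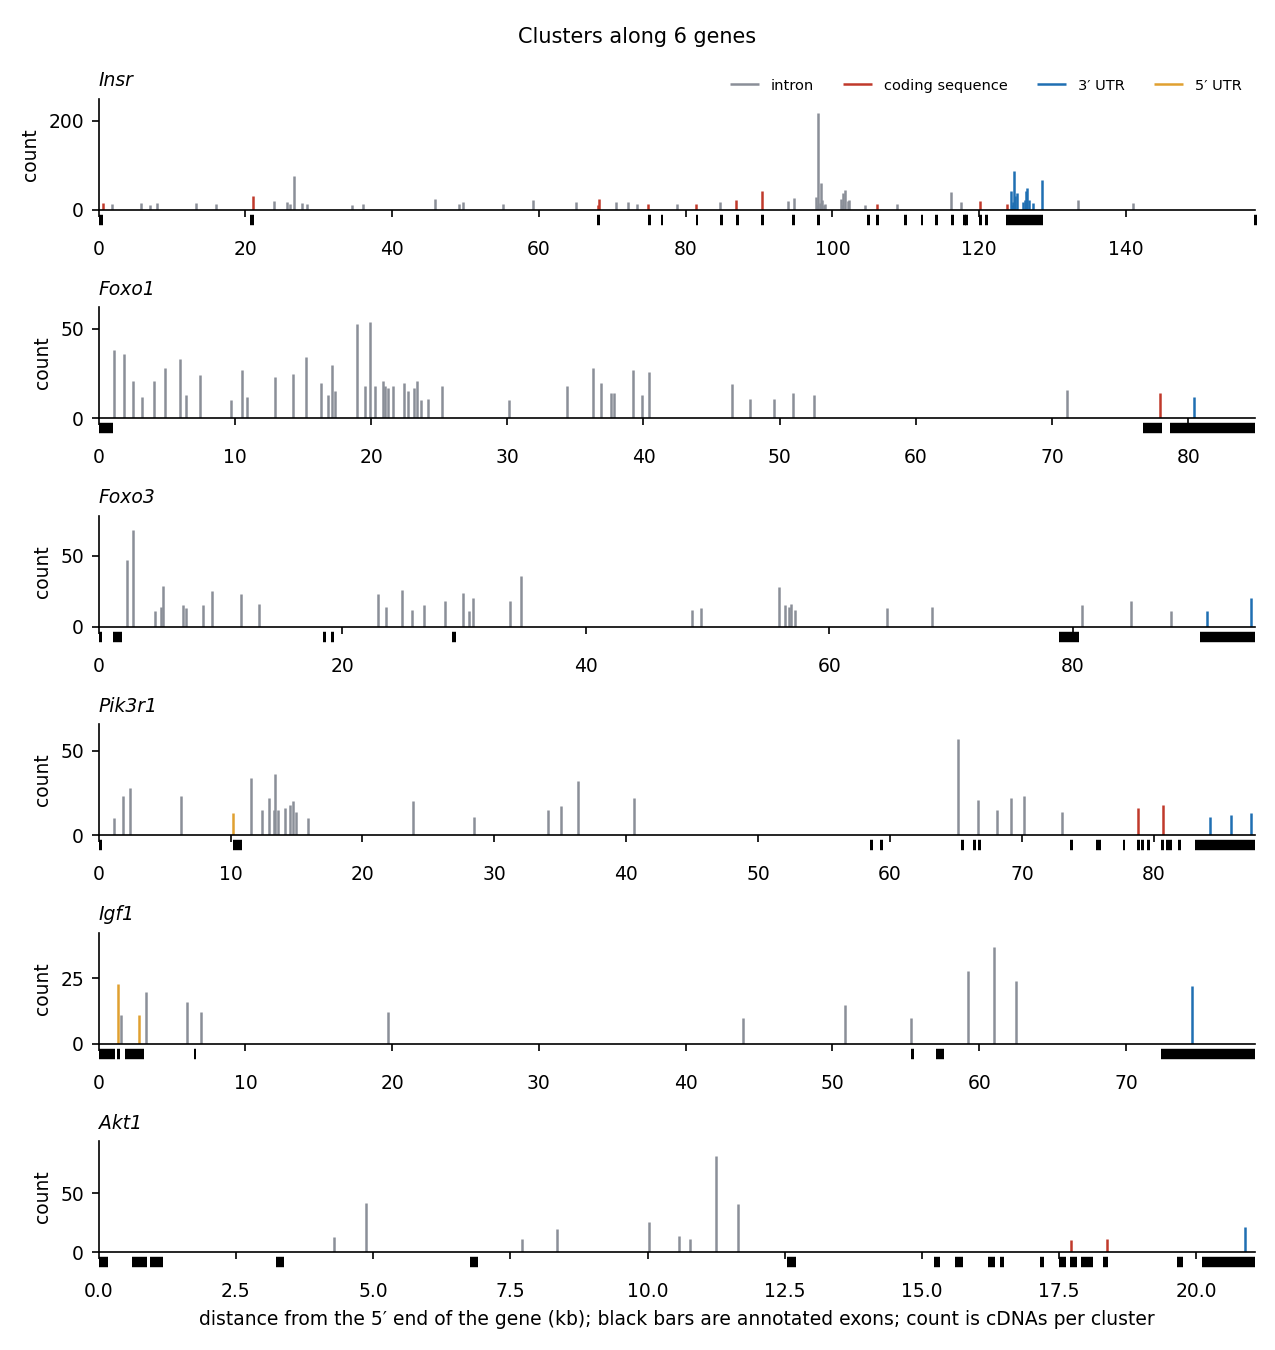
Clusters along the 6 genes with the most clusters, by distance in kb from the 5′ end of the gene. Each vertical line is a cluster, its height the cDNA count and its colour the annotation at its midpoint; black bars are annotated exons. Insr peaks beside exon 11 and over its 3′ UTR, whereas most Foxo1 lines stand in the first 25 kb.

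The FOXO genes, whose products drive glucose-producing genes when insulin is low, had nearly all of their clusters in introns. Foxo1 (ENSMUSG00000044167.6, chr3:52268336-52353221) had 51 clusters with 1044 counts, at 6.01 clusters per 10 kb the densest of the 10 genes. Intron 1, 75.6 kb long, held 49 of them. From its 5′ to its 3′ end, 4 equal parts of this intron held 22, 18, 8 and 1 clusters, and 33 of the 51 clusters of the gene lay in its first 25 kb. The highest clusters had 54 and 53 counts, at chr3:52288273-52288285 and chr3:52287284-52287330. Coding sequence held 1 Foxo1 cluster of 14 counts and the 3′ UTR 1 of 12 counts.

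Foxo1 sequence was known only for clusters that annotated exons cover. Of 3 such clusters, 2 held a TGCATG and are printed to show it, with GCATG in capitals. The first, of 34 counts, lay in intron 1 where a transcript of Gm38034 overlaps on the same strand, so that its reads cannot be assigned to Foxo1 alone. A further cluster of Foxo1 was shared with that gene, 2 in all. The second was the 12-count cluster of the 3′ UTR.
Foxo1 intron 1, chr3:52283549-52283578: aagtatagggttGCATGgagaagtgtgtgt
Foxo1 3′ UTR, chr3:52348748-52348777: aaggcctggtttGCATGagaagaccaaatt

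Foxo3 (ENSMUSG00000048756.11, chr10:42181841-42276755) had 36 clusters with 705 counts, of which 34 were intronic and 2 in the 3′ UTR. Its highest clusters, of 68 counts (52.8 to 86.2) at chr10:42273907-42274033 and 47 counts at chr10:42274431-42274471, lay in succession in the intron after the first coding exon, 782 and 344 nt from it. The next annotated exon lies 16.5 kb on. This stretch held 11 clusters, with 5, 4, 2 and 0 in its 4 equal parts from the 5′ end. A 49.5-kb stretch between later annotated exons held 14 clusters, with 5, 2, 6 and 1 in such parts. Both stretches are parts of longer introns. In coding transcripts, the intron after that first coding exon is 27029 or 76914 nt long. Foxo3 had no cluster in coding sequence and none as narrow as 5 nt, whereas 11 of the 51 Foxo1 clusters were 5 nt wide or less.

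Introns thus held most clusters of the 10 genes. Of the 238 clusters, 195 were intronic (81.9%, Wilson interval 76.6 to 86.3%), against 69.3% of 71565 clusters of coding genes. The 3′ UTR share was 9.24% against 13.8%, the coding share 7.14% against 14.6%, and the 5′ UTR share 1.68% against 1.51%. How much of each gene span is intron was not compared, so these shares are not corrected for intron length. Without Foxo1, the intronic share was 78.1% (71.6 to 83.4%). When exons of every transcript type counted as exonic, 76.1% of the clusters stayed intronic, those inside Insr-204 being among the clusters that left the class.

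Many of the intronic clusters lay far from an exon. Their median distance to the nearest exon was 4457 nt, against 1556 nt over coding genes. Of the 195, 17 (8.72%, 5.51 to 13.5%) were within 300 nt of an exon, against 22.4%. A further 88 (45.1%) were more than 5000 nt away, against 29.1%. Of all intron bases of the 10 genes, 6.59% lay within 300 nt of an exon. That share of bases is not given for all coding genes, so the differences in distance were not separated from intron length. Introns were taken here between neighbouring exons of all annotated transcripts except retained-intron ones, so some are parts of a longer intron. Of 113 clusters in introns of at least 20 kb, 78 (69.0%, 59.99 to 76.8%) lay nearer to the 5′ end than to the 3′ end. The share over coding genes was 62.4% of 17327 clusters of such introns. Without Foxo1 the count was 38 of 64 (59.4%, 47.2 to 70.5%). These intervals treat clusters of the same gene as independent, although such clusters are not replicates. The shares are therefore only described, and their difference from the share over coding genes was not tested.

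The RBFOX motif stood beside a minority of the clusters with known sequence. Annotated exons gave the sequence of 50 of the 238 clusters with 50 nt on each side, 31 of them in Insr. GCATG, searched on the gene strand only, was present in 6 of 50 (12%, Wilson interval 5.62 to 23.8%), against 20.2% of 17770 clusters of coding genes. With 20 nt on each side the shares lay closer together, at 6 of 52 (11.5%, 5.397 to 23.0%) against 12.2% of 20536. In all 6 it was preceded by T, and TGCATG was present in 10.3% of the clusters of coding genes. The reverse complement CATGC, a control for base composition that overlaps GCATG where GCATGC occurs, was present in 3 of 50 against 13.3%. The related motif GCACG was found in 0 of 50, which allows a share of up to 6.0% (3 counts of the total), against 4.09%.

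By position, GCATG was present in 3 of 15 intronic clusters with sequence, in 3 of 22 in 3′ UTRs and in 0 of 10 in coding sequence, which allows a share of up to 30%. The corresponding shares over coding genes were 25.7%, 21.7% and 12.7%. Of the 8 clusters with sequence in the highest 10% of counts, 3 held it (37.5%). All 8 were Insr clusters, since the highest clusters of the other genes had no sequence, so this share describes Insr alone. No share over coding genes is given for the same cut. The 3′ UTRs of the 10 genes together contained 42 GCATG sites, of which 3 lay within 50 nt of a cluster, where 6.71% of the bases lay.

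Of 84 further genes of the pathway, listed by role, 62 had a cluster (73.8%, Wilson interval 63.5 to 82.0%), beside the 41.7% of all coding genes given above. The list was chosen with earlier results of these data known. The 41.7% was taken over all coding genes, whatever their RNA level in hepatocytes, and the difference was not tested. The 62 genes had a median of 4.5 clusters and a summed count of 89. None of them reached the summed count of Insr, and the highest was Mlxipl, with 1507 counts, which encodes the glucose-responsive factor ChREBP. It was followed by the kinase gene Gsk3b with 962 counts, the IGF-binding protein gene Igfbp1 with 757, the adaptor gene Crk with 653 and Igf2r, the receptor that clears IGF2, with 534. Then came the PI3-kinase catalytic subunit genes Pik3cb and Pik3ca with 439 and 436, the phosphatase gene Ptpn11 with 434, the mTORC1 subunit gene Rptor with 415 and the PI3-kinase gene Pik3c2a with 381. Igfbp1 was the densest of these, at 50.4 clusters per 10 kb.

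By role, 10 of 11 adaptor genes, 9 of 10 mTOR pathway genes, all 6 downstream kinase genes and all 5 genes of AKT inhibitors had a cluster. PI3-kinase subunits had 4 of 6, lipid phosphatases 3 of 4, inhibitors of the receptor and adaptors 7 of 9 and transcription factors 5 of 6. Hepatic target genes had 4 of 6 and Akt substrates 3 of 5, each with few counts (175 and 203 in sum). IGF-binding proteins had 4 of 8, receptors 1 of 2, insulin clearance 1 of 3 and the ligands Ins1, Ins2 and Igf2 had 0 of 3. The 22 genes without a cluster also included Igfals, Igfbp3, Igfbp5, Igfbp6, Insrr, Irs4, Socs1, Socs3, Pik3cd, Pik3r2, Inpp5d, Mlst8, Foxo6, Bad, Tbc1d4, Ide, Ceacam2, G6pc and Gys2. The list holds no cluster of fewer than 10 counts, so a gene without one may still have had crosslinks below that number.

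**Figure D5:**
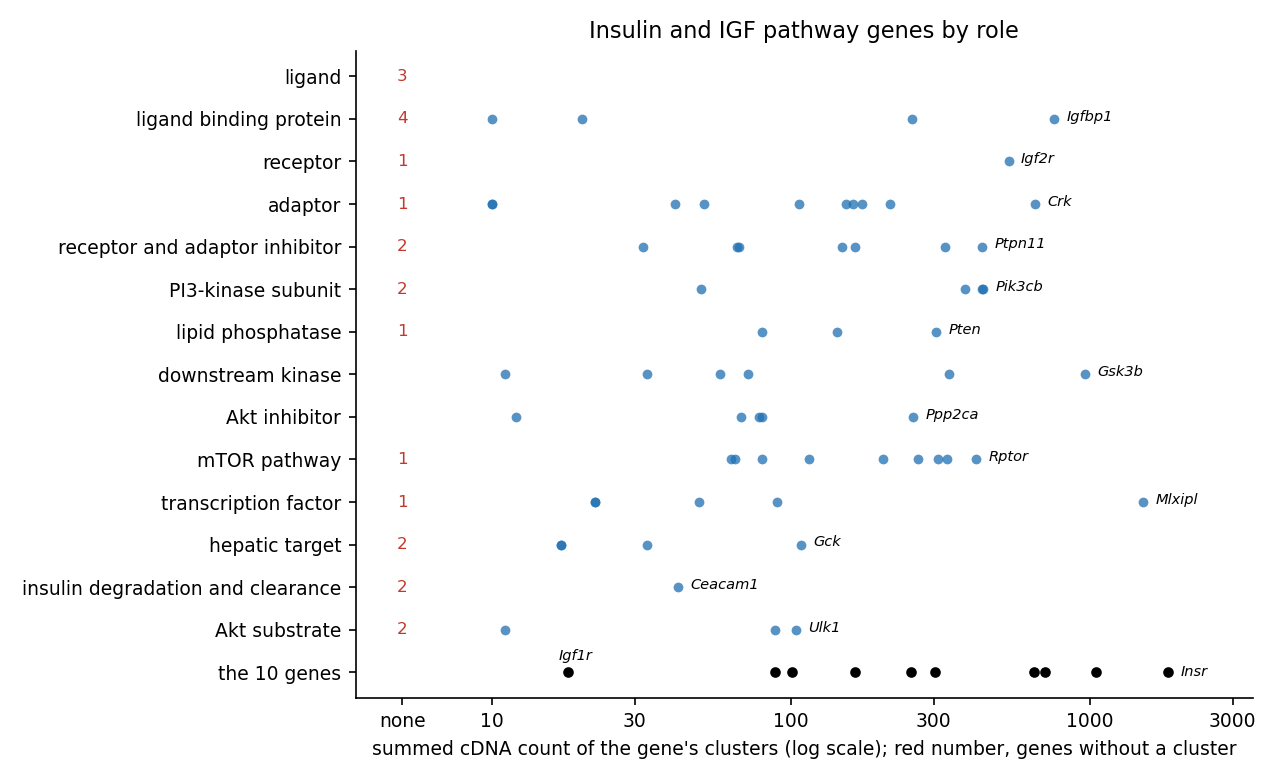
Summed cDNA count of each of 84 further pathway genes (blue, by role) and of the 10 genes described here (black, bottom line), on a log axis. Red numbers count the genes of each role without a cluster, and the gene with the highest sum of each role is named. Mlxipl, at 1507, is the highest of the 84, and Insr, at 1827, lies above it.

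The hepatocyte label was checked on genes that mark liver cell types. All 6 hepatocyte markers had clusters, with summed counts of 181 to 8110, the latter in Alb. Of 10 markers of Kupffer, endothelial, stellate and bile duct cells, 4 had a cluster. Stab2, Ptprc and Adgre1 had 1 cluster each, of 12, 14 and 15 counts. The stellate marker Reln had 4 clusters with 150 counts, the highest of 88, not far below the hepatocyte marker Ttr at 181. Clec4f, Pecam1, Kdr, Lrat, Krt19 and Sox9 had none. The part of such cells in the counts of the 10 genes was not tested.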

How the data were processed

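RBFOX2 eiCLIP was performed on primary hepatocytes in 3 libraries. Per the submitters' processing notes and the study's methods, the authors removed adaptors with cutadapt (reads of at least 18 nt kept), aligned reads to GRCm38 with STAR 2.4.2a after base calling with CASAVA 1.8.4, kept unique alignments and collapsed PCR duplicates by random barcode. They then pooled the cDNA starts and clustered them with Paraclu. The deposited list gives each cluster's position, strand and count of cDNA starts, from 10 upwards. That the values are counts was read from the values, which are whole numbers.

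Clusters were placed on GENCODE M21 by strand and midpoint with Python 3.11.15, pandas 2.3.3 and scipy 1.17.1; the study used release M20. Class priority was coding sequence, 3′ UTR, 5′ UTR, other exon, intron, over all transcript types except retained introns. Other exons are those of transcripts without coding sequence. Sequence came from M21 transcripts, so most intronic clusters had none. Shares carry Wilson and counts exact Poisson 95% intervals. Assignment of gene and class was tested at random positions in coding sequence, and the reading of sequence was tested on whole exons. Other classes, distances and flank or motif windows were not tested in this way. The pooled list allows no test across libraries.

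The 10 genes, the pathway list and the markers were chosen with earlier results of these data known. Named were the highest cluster of each gene, clusters near cassette exons and exonic groups, and of the other pathway genes the 10 with the highest sums and those without a cluster. Another gene of the pathway list is not reported here.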

Additional observations from a re-analysis of the deposited data

Results flagged for a closer look

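Clusters on the strand opposite to the 10 genes fell outside every comparison above. There were 2 of them inside the gene spans, with 24 counts, against 238 clusters on the gene strand. One lay opposite Insr, with 11 counts over 2 nt (chr8:3257688-3257689), and one opposite Foxo1, with 13 counts over 5 nt (chr3:52330918-52330922). Neither overlapped an annotated gene on its own strand. Among the 238 clusters on the gene strand, 36 (15.1%) were as narrow as 5 nt, beside 21.7% of the clusters of coding genes.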

How the results depend on the processing

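Most of the 22 alternatives left the values within their limits: 15 moved them by less than their interval or by no more than 1.5 times. Keeping only clusters at or above the median count left 124 clusters in the 10 genes and 9 internal exons with a flanking cluster. Keeping only the highest 10% of counts left 19 clusters and an intronic share of 68.4%. At this cut GCATG stood beside 37.5% of the clusters with sequence (3 of 8, and all 8 are of Insr). Of the 84 further pathway genes, 22 kept a cluster. The matching GCATG and gene shares over all coding genes are not given for this cut. Counting exons of every transcript type as exonic gave an intronic share of 76.1%. A flank of 500 nt gave 21 internal exons, and merging clusters within 200 nt gave 212 clusters. The 4 alternatives that left out clusters of 5 nt or less were chosen after seeing the data; they left 202 clusters and 13 exons, but none in Igf1r, whose only cluster is 2 nt wide.

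The list pools all libraries, which precludes leaving out 1 library, and no value has a replicate check. No paired analysis was possible because the only deposited values are pooled over the 3 libraries. The limit of 10 counts per cluster leaves weaker binding unseen, and motif shares rest on 50 clusters, mostly of Insr.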
